A study of Homo sapiens with 2 samples.

Results

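The cells with the most RNA in each of 2 single-cell libraries of HCT116 were examined. They were chosen by measured values: within each library, cells were ranked by their total number of unique molecular identifiers (UMIs, 1 per captured transcript molecule), and the highest 10% were taken. This gave 178 of 1783 mock-treated cells and 175 of 1751 DAC-treated cells, 353 of 3534 cells in all, which are called large cells here. They were compared with middle cells, those between the 40th and 60th percentile of total UMIs of the same library (357 mock-treated and 351 DAC-treated cells). "Large" refers to the number of UMIs only, since neither cell size nor DNA content was measured.

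The HCT116 line comes from a human colon carcinoma. Decitabine (DAC), a deoxycytidine analog, is built into DNA and traps DNA methyltransferases there, which lowers methylation over later divisions. Cells collected on day 7 had received 2 doses of 0.5 μM, 1 on day 1 and 1 on day 3, and had grown free of the drug since a medium change on day 5, whereas mock-treated cells received no DAC. From each condition, 1 library was made by 3′ droplet capture, and the deposited values were UMI counts per gene and cell. With 1 library per condition and no replicate, differences were not tested, intervals cover counting error only, and an effect of DAC cannot be told apart from a difference between the cultures or library preparations.

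A cell that passes through the cycle roughly doubles its content before it divides, so cells in G2 and mitosis tend to carry more RNA than cells in G1. Genes for DNA replication peak in S phase, and genes for chromosome condensation, the spindle, and mitotic kinases peak in G2 and mitosis (G2/M), many of them through promoter elements that are kept silent by the DREAM complex outside this window. A droplet with 2 cells, a cell with an unusual number of chromosomes, and a cell that grows without dividing can also hold many UMIs. The comparison addressed which genes marked large cells and whether the same genes marked them after DAC.

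Large mock-treated cells contained a median of 61929 UMIs (range 52198 to 148446), compared with 27899 in middle cells, a ratio of 2.22. Large DAC-treated cells contained a median of 75811 UMIs (range 67112 to 110116), compared with 35340 in middle cells, a ratio of 2.15. The 2 cells just inside the limit had 52198 and 52428 UMIs in the mock-treated library and 67112 and 67166 UMIs in the DAC-treated library, and the 2 cells just outside had 52117 and 51999 UMIs, and 67081 and 67026 UMIs, respectively. Large cells held 23.8% of the UMIs of the mock-treated library and 23.3% of those of the DAC-treated library. By the limit of the mock-treated library, 434 DAC-treated cells (24.8%) were large. More than 3 times the median of middle cells was reached by 17 large mock-treated cells and 3 large DAC-treated cells, and more than 4 times by 2 and 0 cells. The mitochondrial share of UMIs had a median of 16.2% in large and 17.7% in middle mock-treated cells, and of 19.0% in large and 17.5% in middle DAC-treated cells. Among DAC-treated cells, 24 of 351 middle cells and 2 of 175 large cells had more than 50% mitochondrial UMIs, so the middle DAC-treated cells were a more mixed group. The libraries shared 12 barcodes, of which 7 belonged to large mock-treated cells and 1 to a large DAC-treated cell.

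Large cells of both libraries expressed keratin genes and most of the other epithelial markers. The keratin genes KRT18, KRT19, and KRT8 had 25761, 18145, and 13064 UMIs over the large mock-treated cells, and 55484, 19188, and 21895 UMIs over the large DAC-treated cells. All 16 epithelial markers together made up 0.584% and 0.75% of the UMIs of large cells, mostly from these keratin genes. CEACAM6 was at 0 in both groups, and CEACAM5 (1 and 0 UMIs), CDX1 (0 and 15), and VIL1 (7 and 11) were low. The leukocyte markers made up 0.000674% in large mock-treated cells, with 7 of 10 at 0, and 0.00158% in large DAC-treated cells, where PTPRC had 3 UMIs. CD68 had 76 and 97 UMIs in large mock-treated and large DAC-treated cells, and CD3D had 0 and 80. Of the fibroblast markers, 6 of 8 were at 0 in large mock-treated cells and 2 of 8 in large DAC-treated cells, and COL1A1 had 134 and 258 UMIs. Endothelial markers had 2 and 28 UMIs in all. No doublet caller was run, since 2 cells of the same line in 1 droplet leave no marker of their own.

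In mock-treated cells, genes of mitosis led the genes with a higher share in large cells. A gene was counted as higher or lower when its share of pooled UMIs differed by 1.5-fold or more between large and middle cells, among genes with 200 UMIs or more over both groups. Of 7856 genes, 425 were higher in large cells (5.41%) and 43 were lower (0.547%), with a median log2 ratio of 0.08 over all genes. Of the 60 genes of the G2/M list, 55 were higher, 0 were lower, and the median log2 ratio was 2.03. The 5 that stayed under 1.5-fold were ANP32E, CBX5, CTCF, JPT1, and LBR. The list made up 0.652% of the UMIs of large cells and 0.243% of those of middle cells, a log2 ratio of 1.42 (interval 1.40 to 1.44). JPT1 alone gave 23.4% of the G2/M UMIs of middle cells, and without it the log2 ratio of the list was 1.63.

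The 10 genes with the highest ratios among genes with 1000 UMIs or more all act in mitosis or chromosome structure. UBE2C, the ubiquitin-conjugating enzyme of the anaphase-promoting complex, had 246 CPM (its share of pooled UMIs) in large cells and 35.4 CPM in middle cells, a 6.93-fold difference (log2 ratio 2.79). HMMR, a spindle-associated protein, was 6.39-fold higher, ASPM, which acts at spindle poles and was not in the list, 6.04-fold, and CDK1, the kinase that drives entry into mitosis, 5.94-fold. TOP2A, the topoisomerase that untangles sister chromatids, was 5.47-fold higher. It was followed by PLK1, a mitotic kinase, NUSAP1, a spindle protein, CENPE, a kinetochore motor, NCAPG, a condensin subunit, and MKI67, which coats mitotic chromosomes, at 4.27- to 4.47-fold. The genes were not raised in every large cell. UBE2C had a median of 2 UMIs per large cell (quartiles 0 and 21, highest 122) and of 0 per middle cell (highest 35). MKI67 had a median of 9.5 UMIs per large cell (quartiles 0 and 35, highest 145) and of 0 per middle cell (highest 43). Large and middle cells therefore overlapped for each of these genes, and a UMI of UBE2C was found in 114 and of MKI67 in 125 of the 178 large cells. Counts per cell are not adjusted for depth here or in later paragraphs, and the choice of cells by total UMIs itself sets a gap of about the ratio of the medians. With each cell thinned to 24100 UMIs, UBE2C was detected in 99 large cells (55.6%) and 66 middle cells (18.5%), and MKI67 in 105 (59.0%) and 119 (33.3%).

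Promoters of G2/M genes were searched for known cell cycle elements close to their start sites. A CHR element (cell cycle genes homology region, searched as TTTGAA or TTCGAA on both strands) and a CCAAT box (CCAAT on both strands) were looked for in the 250 bases before the start site in RefSeq promoters (GRCh38.p14). A CHR element was present in 26 of 51 promoters of G2/M genes (51.0%), compared with 14.6% of all 27305 promoters and 9.53% of the promoters of genes that passed the minimum in mock-treated cells. Within 100 bases of the start site the shares were 35.3%, 4.94%, and 2.67%. Both elements were present in 45.1% of G2/M promoters and 5.24% of all promoters. Of the 353 promoters found for the 425 genes higher in large mock-treated cells, 24.4% had a CHR element, as had 3 of 37 promoters of S-phase genes. Of the 35 promoters found for the genes higher in large DAC-treated cells, 5 had one. A match of these letters is a description of the sequence and not a binding site. The 120 bases before the start site are shown for 4 of the G2/M genes with the highest ratios. These had 1000 UMIs or more and a CHR element within 100 bases of the start site. They were chosen to place the element beside genes that marked large mock-treated cells. Capitals mark CHR and CCAAT matches, which may overlap, and sequences run 5′ to 3′ on the strand of the gene. The windows lie at chr5:163460512-163460631 (HMMR, plus strand), chr16:23678769-23678888 (PLK1, plus strand), chr10:128126424-128126543 (MKI67, minus strand), and chr1:43358861-43358980 (CDC20, the activator of the anaphase-promoting complex, plus strand).
HMMR: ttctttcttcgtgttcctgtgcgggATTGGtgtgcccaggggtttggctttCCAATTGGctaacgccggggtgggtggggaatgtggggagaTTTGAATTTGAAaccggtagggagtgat
PLK1: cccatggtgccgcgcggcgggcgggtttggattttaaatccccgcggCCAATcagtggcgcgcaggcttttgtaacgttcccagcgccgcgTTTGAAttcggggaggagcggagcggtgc
MKI67: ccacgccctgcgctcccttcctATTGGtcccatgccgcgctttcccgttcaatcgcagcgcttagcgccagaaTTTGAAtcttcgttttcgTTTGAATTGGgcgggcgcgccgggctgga
CDC20: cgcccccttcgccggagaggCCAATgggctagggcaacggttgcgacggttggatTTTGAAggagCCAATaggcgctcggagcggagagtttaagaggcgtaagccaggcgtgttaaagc
HMMR and MKI67 each had 2 CHR matches, at 28 and 22 bases and at 47 and 29 bases before the start site, whereas PLK1 had 1 at 29 bases and CDC20 had 1 at 65 bases.

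Genes of DNA replication were also higher in large mock-treated cells, although less than those of mitosis. Of 38 S-phase genes past the minimum, 29 were higher, 0 were lower, and the median log2 ratio was 0.95. Over all genes, 5.41% were higher, and the median log2 ratio was 0.08. RRM2, the ribonucleotide reductase subunit that supplies deoxynucleotides, was 3.95-fold higher (74.0 against 18.7 CPM), ATAD2, a chromatin ATPase, 3.03-fold, and TYMS, thymidylate synthase, 2.37-fold. NASP, a histone chaperone, and SLBP, which binds histone mRNA, had ratios of 1.41 and 1.10. Of 5 replication-dependent histone genes past the minimum, 4 were higher, led by HIST1H4C at 2.50-fold, and HIST1H2AC had a ratio of 1.29. These transcripts mostly lack a poly(A) tail, so 3′ capture records only a part of them. Of 10 tubulin genes, which form microtubules, 5 were higher, led by TUBA1C at 2.30-fold, and TUBB4B was 2.28-fold higher. Among 13 cyclins and CDK inhibitors, 7 were higher. CCNA2, the cyclin of S phase and G2, was 5.74-fold higher, CCNB1 and CCNB2, the mitotic cyclins, 3.65- and 2.27-fold, and CCNE1, the cyclin of S-phase entry, 1.63-fold. CCND1 and CCND3, cyclins of G1, had ratios of 1.17 and 0.988, and CCND2, CCNE2, and CDKN2C were under the minimum. The inhibitors CDKN1A (p21), CDKN3, and CDKN2D were 2.14-, 1.86-, and 1.76-fold higher, whereas CDKN1B (p27), CDKN2A, CDKN2B, and CDKN1C had ratios of 1.44, 1.12, 0.779, and 0.722. The genes of the G2/M, S-phase, histone, and tubulin lists accounted for 92 of the 425 higher genes, and 333 lay outside these lists. The lists do not hold every cell cycle gene, and the mitotic genes FAM83D and DEPDC1 were outside them. Of 113 promoters of genes 2-fold or more higher outside the G2/M and S-phase lists, 37 had a CHR element (32.7%). That share was 9.53% for genes past the minimum. Of 26 p53 target genes, 5 were higher, CDKN1A, AEN, MDM2, PPM1D, and DDB2, and 22 had a ratio above 1. Their median log2 ratio was 0.29, compared with 0.08 over all genes.

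Cells of each library were also divided into 10 groups of equal size by total UMIs, of which groups 5 and 6 are close to the middle cells and group 10 holds the large cells. In mock-treated cells, the G2/M share was 0.226% to 0.263% in groups 4 to 7, 0.39% in group 8, 0.506% in group 9, and 0.652% in group 10. The S-phase share was 0.087% to 0.0972% in groups 4 to 7, 0.231% in group 9, and 0.179% in group 10, so it was highest just below the large cells. In DAC-treated cells, the G2/M share was 0.709% to 0.922% in groups 5 to 10, with 0.858% in group 10. Their S-phase share was 0.355% in group 6 and 0.262% in group 10. Mitochondrial genes gave 30.4% to 61.8% of the UMIs in groups 1 to 3 of mock-treated cells and 53.6% and 45.5% in groups 3 and 4 of DAC-treated cells.

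**Figure D1:**
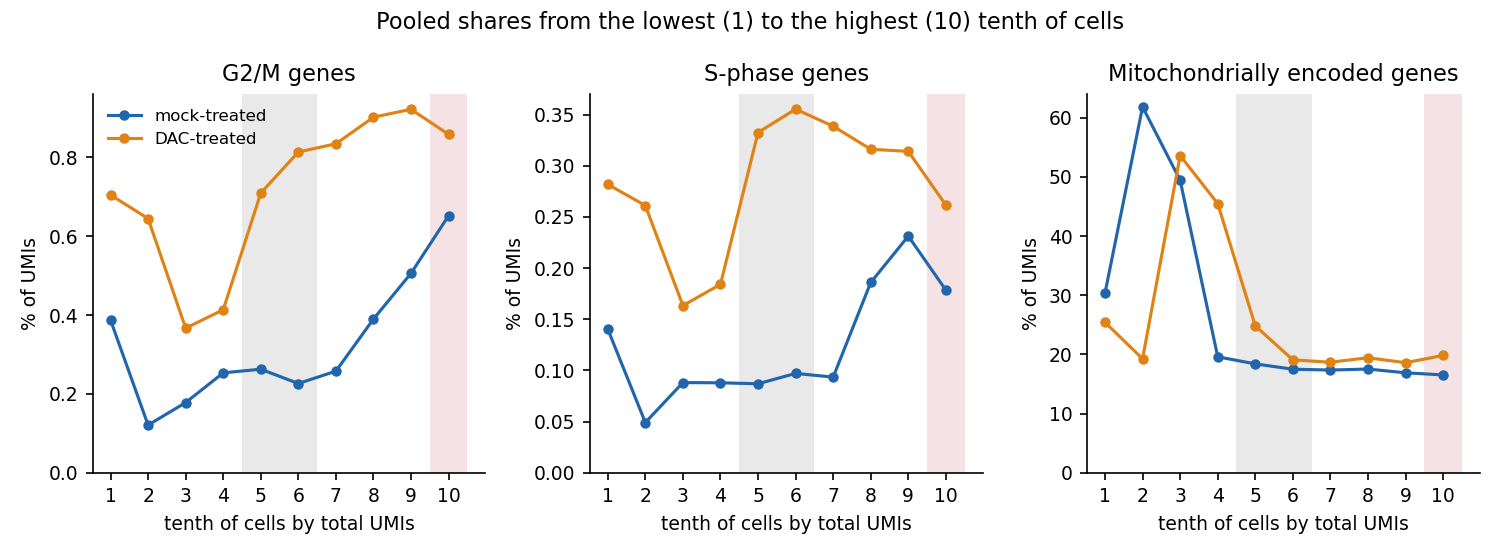
Share of pooled UMIs (percent) of G2/M, S-phase, and mitochondrially encoded genes in 10 groups of cells from the fewest (1) to the most UMIs (10) in each library, with middle cells shaded grey and large cells shaded red. In mock-treated cells the G2/M share was 0.652% in group 10 and 0.226% in group 6, while in DAC-treated cells it was 0.858% and 0.813%.

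Genes with a lower share in large mock-treated cells differed less. BMP4, a secreted growth factor, had 38.6 CPM in large and 65.3 CPM in middle cells (ratio 0.591). The interferon-inducible membrane proteins IFITM2 and IFITM3 had ratios of 0.601 and 0.642, and S100A4, a calcium-binding protein, 0.631. The other 6 of the 10 genes with the lowest ratios were PNRC1, AHNAK2, SERPINE2, NR2F1, CPOX, and KLF2, at 0.644 to 0.670. Of 12 interferon-stimulated genes, 2 were lower, IFITM2 and IFITM3, compared with 0.547% of all genes. None of the 79 cytosolic ribosomal protein genes was past 1.5-fold, 1 of them had a ratio above 1, and their summed share was 24.3% in large and 26.1% in middle cells. By chromosome, the share of nuclear-gene UMIs in large cells was 0.931 to 1.07 times that of middle cells over 22 autosomes and X, so none differed by 1.5-fold.

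The large mock-treated cells varied widely in these genes. Each cell was thinned to 24100 UMIs, and a limit was set at the upper quartile of middle mock-treated cells, at 0.178% of UMIs for G2/M genes and 0.0871% for S-phase genes. Above the G2/M limit were 105 of 178 large cells (59.0%, interval 51.4% to 66.3%) and 86 of 357 middle cells (24.1%, interval 19.7% to 28.9%). Both limits were passed by 91 large cells, the G2/M limit alone by 14, the S-phase limit alone by 15, and neither by 58 (32.6%). Of the 17 cells with more than 3 times the median UMIs of middle cells, 8 were above the G2/M limit and 9 were above neither. Within 10% of either limit lay 22 large cells. At equal depth, a median of 4721 genes was detected in large and 4528 in middle mock-treated cells, with quartiles of 4539 to 4920 and 4350 to 4726. The share of p53 target genes was above the corresponding limit in 65 large cells (36.5%) and 86 middle cells (24.1%).

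**Figure D2:**
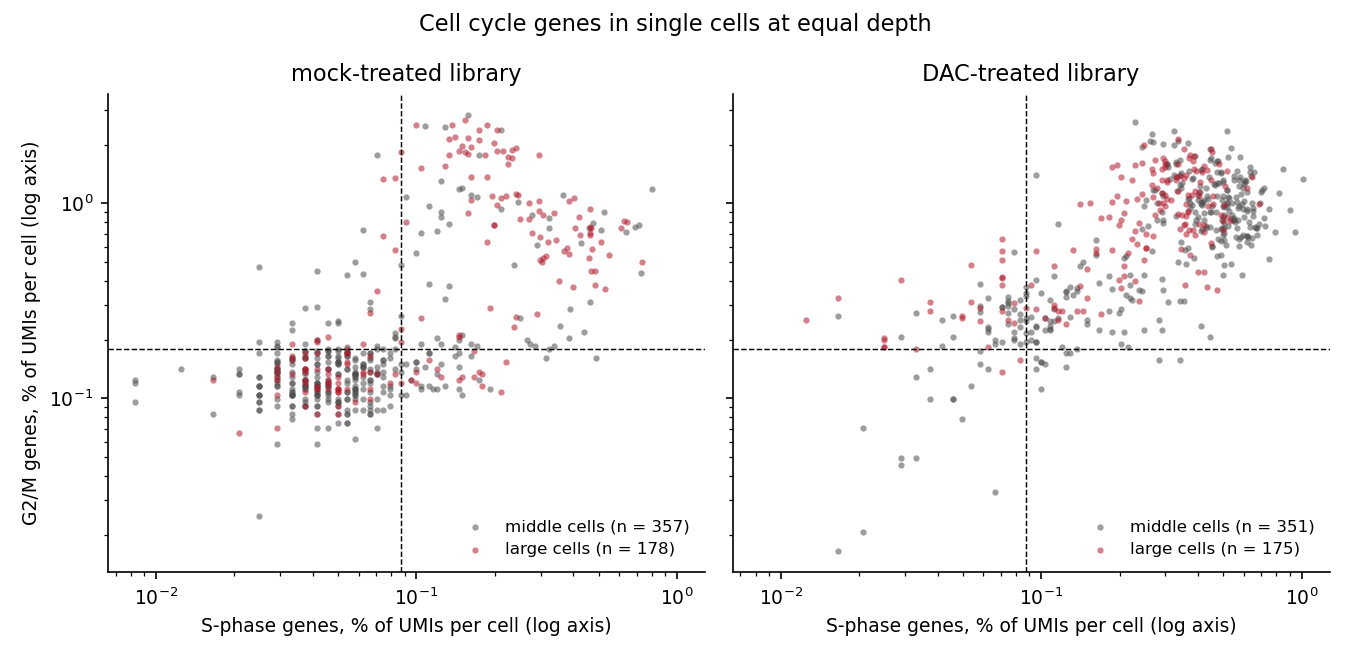
G2/M against S-phase genes in percent of UMIs per cell (log axes) after thinning to 24100 UMIs, with a point for each large or middle cell of each library and dashed lines at the limits from middle mock-treated cells. In the mock-treated library, 58 of 178 large cells lie in the lower left with most middle cells, while in the DAC-treated library 3 of 175 large cells do.

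In DAC-treated cells, few mitotic genes were past 1.5-fold between large and middle cells. Of the same 60 G2/M genes, 2 were higher in large cells, 0 were lower, and the median log2 ratio was 0.17. The number higher was 9 with mitochondrial genes left out of both the shares and the ranking of cells. It was 0 without cells over 50% mitochondrial UMIs, an alternative chosen after seeing the data. Over all 8833 genes past the minimum, 62 were higher (0.702%) and 247 were lower (2.8%), with a median log2 ratio of -0.04. The 2 higher G2/M genes were UBE2C, at 1.58-fold (332 against 210 CPM), and CENPA, the histone variant of centromeres, at 1.55-fold. The other leading genes of mock-treated cells had ratios of 0.943 (NCAPG) to 1.33 (CDK1). The summed G2/M share was 0.858% in large and 0.767% in middle cells, so both groups lay above the 0.652% of large mock-treated cells. In single cells, UBE2C had a median of 21 UMIs per large DAC-treated cell (quartiles 3 and 39) and of 4 per middle cell (quartiles 1 and 11), and at equal depth it was detected in 79.4% and 71.5% of cells. At equal depth, 172 of 175 large DAC-treated cells (98.3%, interval 95.1% to 99.6%) and 322 of 351 middle DAC-treated cells (91.7%, interval 88.3% to 94.4%) were above the G2/M limit of middle mock-treated cells. Against the upper quartile of middle DAC-treated cells, the share of large cells was 32.6% (interval 25.7% to 40.1%), compared with 25.1% of middle cells. A median of 4926 genes was detected at equal depth in both groups.

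Some genes of DNA replication had a lower share in large than in middle DAC-treated cells, while most stayed under 1.5-fold. Of 45 S-phase genes, 0 were higher, 10 were lower, 2 had a ratio above 1, and the median log2 ratio was -0.41. Over all genes, 2.8% were lower, and the median log2 ratio was -0.04. CCNE2, a cyclin of S-phase entry, had the lowest ratio at 0.482, from 90 and 166 UMIs. PCNA, the sliding clamp of DNA polymerases, had 139 CPM in large and 223 CPM in middle cells (ratio 0.626), although it had a median of 9 UMIs per large cell (quartiles 4 and 16) and 7 per middle cell (quartiles 3 and 12). Only 6 of 175 large DAC-treated cells (3.43%, interval 1.27% to 7.31%) had an S-phase share above the upper quartile of middle DAC-treated cells. By the limit of middle mock-treated cells, 145 large DAC-treated cells (82.9%) and 292 middle DAC-treated cells (83.2%) were above it. Of 12 histone genes, 5 were lower, led by HIST2H2AC at a ratio of 0.369, and HIST1H4C had a ratio of 0.678. The number of lower S-phase genes ranged from 1 with cells ranked by detected genes to 24 with the highest 5% as large cells.

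Genes of the interferon response made up a part of the lower genes. Of 30 interferon-stimulated genes, 17 were lower in large DAC-treated cells, 0 were higher, and the median log2 ratio was -0.66. Among all genes there, 2.8% were lower, and the median log2 ratio was -0.04. The log2 ratio of the summed share of the list was -0.26, close to the -0.29 of mock-treated cells. IFIT2, an antiviral protein that binds RNA, had 18 UMIs in large and 189 in middle cells (ratio 0.0848). It was present in 7 of 175 large and 22 of 351 middle cells, and 1 middle cell held 112 of its UMIs, but without the highest cell of each group the ratio was 0.0811. The most abundant genes of the list differed less, with ratios of 0.965 for ISG15, a ubiquitin-like protein, 0.863 for IFI27, and 0.758 for IFITM3. The share of interferon-stimulated genes per cell at equal depth had a median of 0.282% in large cells (quartiles 0.176% and 0.490%) and 0.303% in middle cells (quartiles 0.168% and 0.595%), so the groups overlapped. With cells over 20% mitochondrial UMIs left out, 7 genes of the list were lower, and 100 genes were lower in all, and with cells ranked by detected genes the numbers were 7 and 72. The part of the mitochondria-rich middle cells in these differences was not tested beyond these alternatives.

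Among genes with 1000 UMIs or more, the lowest ratio in large DAC-treated cells was that of GDF15, a secreted stress factor and p53 target, at 133 CPM in large and 319 CPM in middle cells (ratio 0.416). In mock-treated cells its ratio was 1.33 (811 against 608 CPM). In single cells, GDF15 had a median of 3 UMIs per large DAC-treated cell (quartiles 1 and 12, maximum 122) and 2 per middle cell (quartiles 0 and 8, maximum 238), so the groups overlapped. Others among the 10 lowest were LAMB3, a laminin chain, TUBA1A, an α-tubulin, the nuclear RNA KCNQ1OT1, JUNB, an AP-1 factor, RSRP1, EIF4A3, an RNA helicase of the exon junction complex, PRF1, perforin, and NFKBIA, the inhibitor of NF-κB, with ratios of 0.522 to 0.595. LAMB3 depended on the cells included, with a log2 ratio of -0.94 over all cells and 0.048 without cells over 20% mitochondrial UMIs. The chaperones of the endoplasmic reticulum had a median log2 ratio of -0.25, with 2 of 19 lower (2.8% of all genes there), among them HSPA5 (BiP) at 0.612. In contrast, 71 of 79 ribosomal protein genes had a ratio above 1, and the log2 ratio of their summed share was 0.16, although none was past 1.5-fold.

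Of the 62 genes higher in large DAC-treated cells, 2 were in the cell cycle lists and 60 were not. Beside UBE2C, 9 genes made up the 10 with the highest ratios among genes with 1000 UMIs or more. KRT81, a hair keratin, had 230 CPM in large and 99.0 CPM in middle cells (2.33-fold). It had 589 UMIs in a single large cell, and without the highest cell of each group it was 2.09-fold higher. TGM2, a protein cross-linking enzyme, was 1.91-fold higher, CDA, cytidine deaminase, which also inactivates DAC, 1.89-fold (80.3 against 42.5 CPM), and KRTAP2-3, a hair keratin-associated protein, 1.71-fold. CDA had a median of 3 UMIs per large cell (quartiles 1 and 8, maximum 60) and 1 per middle cell (quartiles 0 and 2, maximum 23), and without the highest cell of each group it was 1.88-fold higher. In mock-treated cells the ratio of CDA was 0.761. That of TGM2 was 0.707, with 44 of its 93 UMIs in large mock-treated cells from 1 cell, and was 0.411 without the highest cell of each group. TAGLN, an actin-binding protein, had the highest ratio at 2.46-fold, but 792 of its 1559 UMIs in large cells came from 1 cell, and without the highest cell of each group its ratio was 1.36. COTL1, an actin-binding protein, C11orf24, KRTAP3-1, and the olfactory receptor gene OR51B5 were 1.56- to 1.60-fold higher. CDKN1A had a ratio of 1.34, and at equal depth it was detected in 91.4% of large and 82.3% of middle cells. Of 29 p53 target genes, 0 were higher, 2 were lower (2.8% of all genes there), and 10 had a ratio above 1. Their median log2 ratio was -0.07, compared with -0.04 over all genes. Their share per cell passed the upper quartile of middle DAC-treated cells in 28 of 175 large and 84 of 351 middle cells.

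Of the 10 genes induced by DAC in the series, only KRTAP3-1 was past 1.5-fold in large DAC-treated cells, at 175 against 112 CPM (1.57-fold). It had 0 UMIs in large and middle mock-treated cells. MAGEA4, a cancer-testis antigen, and MEG3, an imprinted RNA, had ratios of 0.761 and 0.820, and LINC00958 had 1.42. TKTL1, VCX3A, LY6K, UCHL1, SAP25, and VCX3B had ratios of 1.04 to 1.19. Without the highest cell of each group, the ratio was 0.963 for VCX3A and 1.03 for VCX3B. The summed share of the 10 genes was 0.129% in large and 0.119% in middle cells. At equal depth, a median of 5 of the 10 genes was detected in large cells (quartiles 4 and 7) and 5 in middle cells (quartiles 3.5 and 6). By chromosome, the ratios were 0.916 to 1.06.

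The 2 libraries were set side by side by subtracting the log2 ratio of large to middle cells in mock-treated from that in DAC-treated cells. Among 7507 genes past the minimum in both, 65 had a ratio 1.5-fold or more higher in DAC-treated cells (0.866%) and 755 had one that was lower (10.1%). With median-of-ratios scaling, which brings the median ratio of each library to 1, these were 193 and 509 genes. Of the 60 G2/M genes, 56 were lower in this sense and 0 were higher, and of the 38 S-phase genes 35 were lower and 0 were higher. Among the 2382 of these genes with 1000 UMIs or more in each library, the 5 with the most negative difference, ASPM, HMMR, RRM2, NCAPG, and CCNB1, had log2 differences of -2.16 to -2.62. The 5 with the most positive difference in the same 2382 genes were GLRX, glutaredoxin (1.06), BMP4 (0.85), TMSB4X, which binds actin monomers (0.73), OTUD6B-AS1 (0.65), and MT1X, a metallothionein (0.63). Below that limit, TGM2 and CDA had differences of 1.43 and 1.31, and HJURP, a chaperone of CENPA, had -2.55. The ratios of both libraries had a Pearson r of 0.13 over 7507 genes, which is a description over genes and not over samples. Of 416 genes higher in large mock-treated cells and past the minimum in both libraries, 7 were also higher in large DAC-treated cells (1.68% of these genes, compared with 0.373% of all 7507). These 7 were among 28 genes higher in large DAC-treated cells, while 5.54% of all 7507 genes were higher in large mock-treated cells. Of the 7, UBE2C, CENPA, FAM83D, and DEPDC1 are mitotic genes. Of the 416 genes, 11 were lower in large DAC-treated cells (2.64%, compared with 2.25% of all 7507), a share near that of all genes. The 11 included MCM2, MCM3, MCM5, and MCM7, subunits of the replicative helicase, and RFC4, a subunit of the clamp loader.

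**Figure D3:**
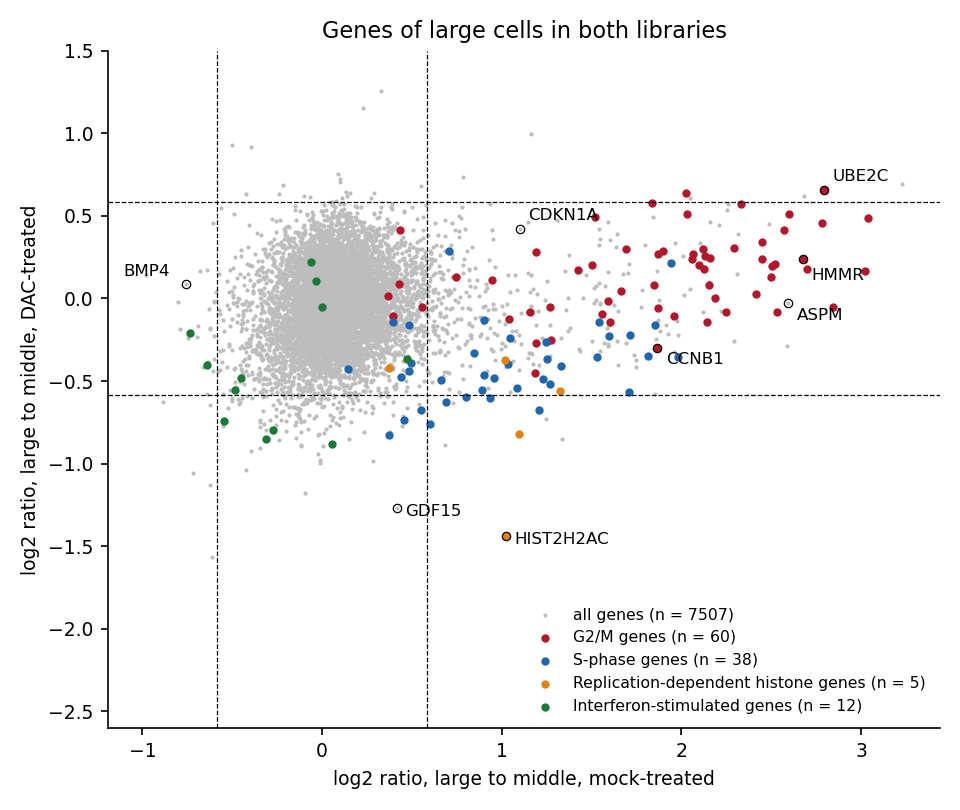
Log2 ratio of pooled share in large to middle cells in the mock-treated (x axis) and DAC-treated library (y axis) for 7507 genes, with 4 gene lists coloured, some genes named, and dashed lines at 1.5-fold. G2/M genes spread along the x axis up to 3.04 and stay between -0.45 and 0.66 on the y axis.

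**Figure D4:**
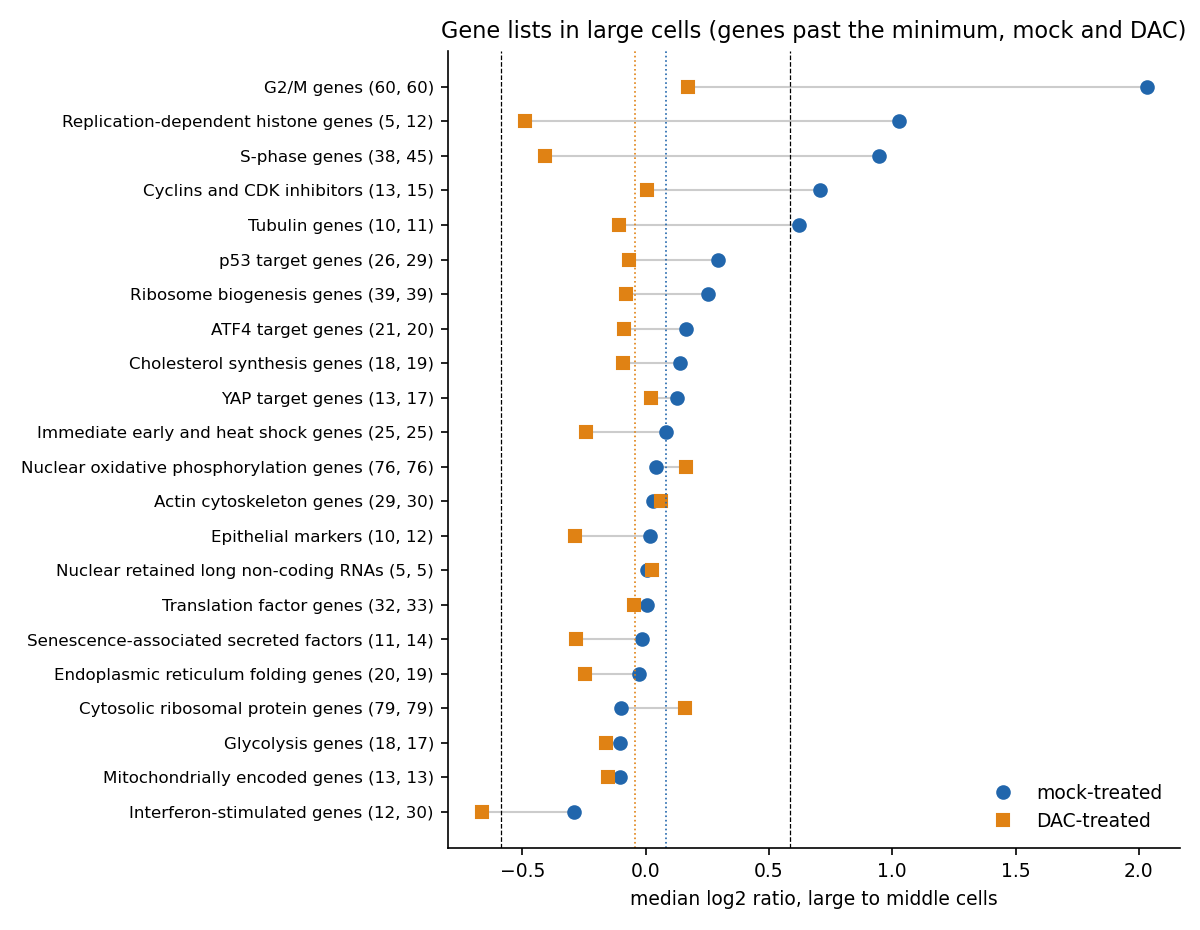
Median log2 ratio of large to middle cells for each gene list with 5 or more genes past the minimum in both libraries (circles, mock-treated, squares, DAC-treated), with the numbers of genes in brackets, dotted lines at the median of all genes and dashed lines at 1.5-fold. The G2/M median was 2.03 in mock-treated and 0.17 in DAC-treated cells.

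The 58 large mock-treated cells above neither limit were then compared with the 243 middle mock-treated cells above neither, a comparison chosen after the values were seen. Their median totals were 62116 and 27899 UMIs, and their median mitochondrial shares were 18.1% in both groups. Few genes differed: of 5098 genes, 22 were higher (0.432%) and 26 were lower (0.51%). CDKN1A, the p21 inhibitor of cyclin-dependent kinases, led the genes with 500 UMIs or more and was 2.92-fold higher (log2 ratio 1.55, interval 1.38 to 1.72). It had 0 to 176 UMIs per large cell and 0 to 21 per middle cell, so the groups overlapped, and without the highest cell of each group it was 2.43-fold higher. SFN (14-3-3σ), which holds CDK1 in the cytoplasm, was 1.86-fold higher, and 1.55-fold without the highest cells. ALDH1A3, an aldehyde dehydrogenase, and FHL2, a LIM domain protein, were 1.66- and 1.60-fold higher, and 1.55- and 1.49-fold without the highest cells. Of 22 p53 target genes, 3 were higher, CDKN1A, MDM2, which degrades p53, at 1.64-fold, and TP53I3 at 1.61-fold, and 18 had a ratio above 1. TP53I3 had 40 of its 108 UMIs in 1 large cell, and without the highest cells its ratio was 1.09. DKK1, a secreted WNT antagonist, and BMP4 had the lowest ratios, at 0.438 and 0.486. PHLDB2, KLF2, and TMSB4X followed, at 0.615 to 0.657.

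**Figure D5:**
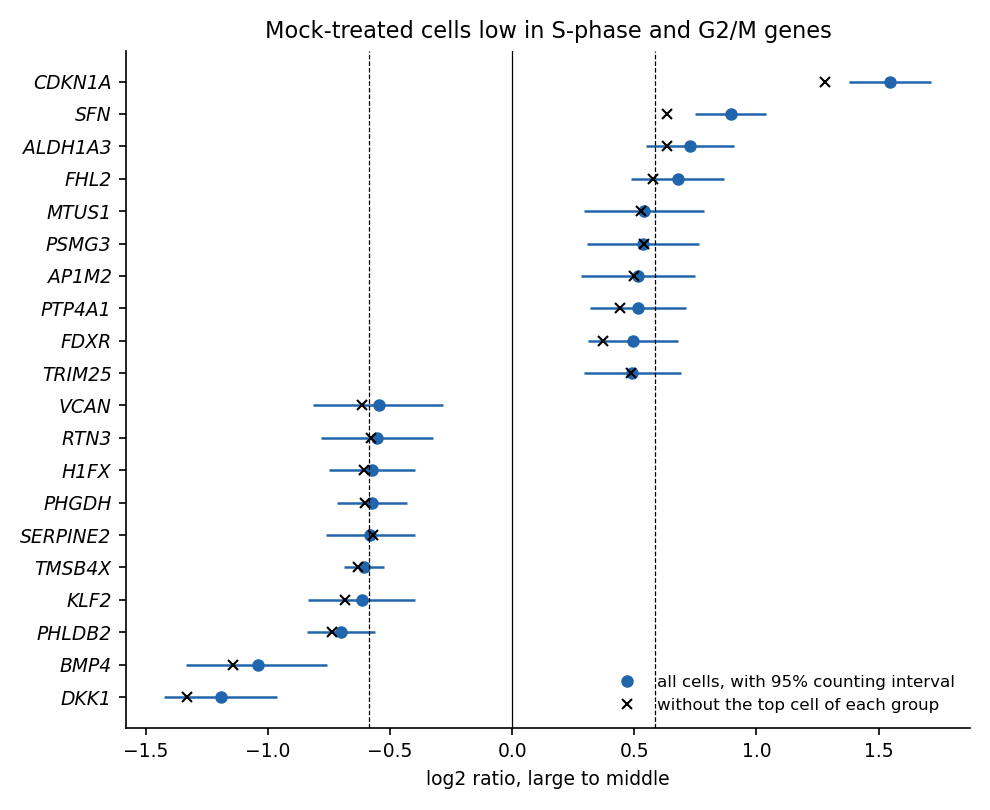
Log2 ratio of large (n = 58 cells) to middle (n = 243 cells) mock-treated cells that were above neither limit, for 20 genes, those with the 10 highest and 10 lowest ratios among genes with 500 UMIs or more, with 95% counting intervals and, as crosses, the ratio without the highest cell of each group. CDKN1A was the highest at 1.55 and DKK1 the lowest at -1.19.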

How the data were processed

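Sequence reads of 1 mock-treated and 1 DAC-treated library were mapped to hg38 using Cell Ranger, and the authors deposited whole UMI counts of 33538 genes per cell, without normalization. All deposited cells were used, and no column was left out. The libraries had 49911689 and 59046165 UMIs. Counts were pooled over large and over middle cells, and shares of pooled UMIs were compared using numpy 2.4.6, pandas 2.3.3, and scipy 1.17.1 (Python 3.11.15) and plotted using matplotlib 3.10.9. A 0 was set to 3 counts in a ratio. Intervals were exact at the 95% level (Poisson ratio, Clopper-Pearson), and no p-value was computed. Genes were named from, per library, those with the 10 highest and 10 lowest ratios among genes with 1000 UMIs or more, the 5 with the highest and lowest difference, the cyclins, CDK inhibitors, and 10 DAC-induced genes, and in each of 26 lists the 3 most abundant and the extreme members. A gene that this rule selects is not reported here. Other names were chosen after their values were seen. Members and lists were chosen with earlier results of these data known. Chromosomes were taken from GENCODE release 44. Scripts were tested on simulated data. Alternatives changed the choice of cells, mitochondrial filter, scaling, minimum, and fold. Where mitochondrial genes were left out, cells were ranked again by their other UMIs. After the data were seen, 3 alternatives were added. They left out cells over 50% mitochondrial UMIs, left out the highest cell for each gene, or kept only cells low in both cycle lists.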

Additional observations from a re-analysis of the deposited data

Results flagged for a closer look

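In several gene lists the summed share was higher in large than in middle mock-treated cells and lower in large than in middle DAC-treated cells, and in 3 of them the ratios of the libraries differed by 1.5-fold or more. For S-phase genes the log2 ratio was 0.95 in the mock-treated and -0.40 in the DAC-treated library, which differed by -1.35. That of replication-dependent histone genes was 1.24 and -0.53, a difference of -1.77, and that of tubulin genes was 0.91 and -0.20, a difference of -1.11. With 1 library per condition, these differences were not tested.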

How the results depend on the processing

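With 1 library per condition no library could be left out, and doublets, DNA content, and cell size were not measured, so counts past 1.5-fold depend on which cells enter each group. The summed log2 ratio of G2/M genes was 1.28 to 1.72 in mock-treated and 0.01 to 0.32 in DAC-treated cells under the alternatives. That of S-phase genes was 0.84 to 1.42 and -0.52 to -0.20. These ranges leave out the mock-treated cells low in both lists, which were chosen by these genes. There the summed log2 ratios were 0.04 for G2/M genes and 0.02 for S-phase genes. No paired analysis was possible because each condition had 1 library. Of the summary values under alternatives, 56 moved and 167 did not, and of the values of single genes and other lists, 320 moved, 1 reversed, and 317 did not move. The causes were not tested.

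Genes higher in large mock-treated cells (425) numbered 648 with cells ranked by detected genes, 89 with a minimum of 1000 UMIs, 1552 with a minimum of 1 UMI, and 211 at 2-fold. Genes lower in them (43) numbered 70 with middle cells from the 25th to the 75th percentile, 79 without mitochondrial genes and with median-of-ratios scaling, 12 without cells over 20% and 26 without cells over 50% mitochondrial UMIs (the latter chosen after seeing the data), 9 with a minimum of 1000 and 1223 with a minimum of 1 UMI, and 1 at 2-fold. Interferon-stimulated genes lower in them (2) numbered 1 without cells over 20% mitochondrial UMIs.

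Genes higher in large DAC-treated cells (62) numbered 118 with the highest 5% of cells, 207 with cells ranked by detected genes, 21 with a minimum of 1000 and 1237 with a minimum of 1 UMI, 11 at 2-fold, and 94 with median-of-ratios scaling. Genes lower in them (247) numbered 382 with the highest 5%, 100 without cells over 20% mitochondrial UMIs, 72 with cells ranked by detected genes, 39 with a minimum of 1000 and 2313 with a minimum of 1 UMI, and 29 at 2-fold. With median-of-ratios scaling the split of higher to lower genes was 348 to 79 in mock-treated cells, 94 to 189 in DAC-treated cells, and 193 to 509 for the difference between libraries.

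G2/M genes higher in large DAC-treated cells (2) numbered 1 with the highest 5%, with the wider middle, and without cells over 20% mitochondrial UMIs, 4 with the highest 20%, with cells ranked by detected genes, and with median-of-ratios scaling, 9 without mitochondrial genes, and 0 without cells over 50% mitochondrial UMIs. S-phase genes lower in them (10) numbered 24 with the highest 5%, 2 with the highest 20% and without mitochondrial genes, 4 with the wider middle, 1 with cells ranked by detected genes, and 18 without cells over 50% mitochondrial UMIs. Interferon-stimulated genes lower in them (17) numbered 7 without cells over 20% mitochondrial UMIs and with cells ranked by detected genes. The log2 ratio of LAMB3 turned from -0.94 to 0.048 without cells over 20% mitochondrial UMIs. DAC-induced genes past 1.5-fold (1) numbered 2 with the highest 5% and without cells over 50% mitochondrial UMIs, and 0 with the highest 20% and with the mean of per-cell shares.

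Genes with a higher ratio in DAC-treated cells (65) numbered 108 with the wider middle, 42 without mitochondrial genes, 118 with cells ranked by detected genes, 10 with a minimum of 1000 UMIs, and 193 with median-of-ratios scaling, and those with a lower ratio (755) numbered 484 without cells over 20% mitochondrial UMIs and 131 with a minimum of 1000 UMIs. With cells ranked by detected genes, 70.2% of large mock-treated cells were above the G2/M limit and 70.8% above the S-phase limit. The share of large DAC-treated cells above the S-phase limit was 92.6% with that ranking and 92.9% without cells over 20% mitochondrial UMIs.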

Other observations

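Most lists outside the cell cycle differed little between large and middle cells. Of 39 ribosome biogenesis genes, none was past 1.5-fold in either library, and 35 had a ratio above 1 in mock-treated and 16 in DAC-treated cells. Their median log2 ratios were 0.25 and -0.08, compared with 0.08 and -0.04 over all genes. Nuclear genes of oxidative phosphorylation had summed log2 ratios of 0.04 in mock-treated and 0.20 in DAC-treated cells, glycolysis genes of -0.12 and -0.17, and translation factor genes of -0.05 and -0.01. Mitochondrially encoded genes had summed log2 ratios of -0.12 and -0.13, although in DAC-treated cells the median share per cell was higher in large (19.0%) than in middle cells (17.5%). Of the senescence-associated secreted factors, 0 of 11 were past 1.5-fold in mock-treated cells and 5 of 14 were lower in large DAC-treated cells (2.8% of all genes there), among them CXCL8, a neutrophil-attracting chemokine, with 142 UMIs in large and 396 in middle cells, 153 of which came from 1 middle cell. Of 25 immediate early and heat shock genes, 1 was higher in large mock-treated cells, FOSL1, an AP-1 subunit, at 1.91-fold. This is no larger a share than the 5.41% of all genes. In large DAC-treated cells, 3 of 25 were lower (2.8% of all genes there).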
